A study of Homo sapiens with 4 samples.

Results

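The clustered histone genes are the protein-coding genes whose symbols begin with HIST1H, HIST2H, HIST3H or HIST4H, and 71 of the 58735 genes in the expression tables met that rule. They comprised 6 H1, 17 H2A, 18 H2B, 15 H3 and 15 H4 genes. The HIST1 cluster on chromosome 6 held 55 of them, the HIST2 and HIST3 clusters on chromosome 1 held 12 and 3, and HIST4 on chromosome 12 held 1. Symbols are those of the deposited tables, which precede the current names.

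RNA-seq was performed on MHCC-97H cells, a metastatic hepatocellular carcinoma (HCC) line, to see how migrasomes (Migs) change gene expression. Migs form on the fibres that a moving cell leaves behind it, and other cells can take them up. The 4 libraries, 1 per condition, were labelled as WT cells of 1 batch that received PBS or 2 µg of Migs for 24 h. The Migs came from normoxic cultures of MHCC-97H (normo-Migs), from hypoxic cultures (hypo-Migs), or from hypoxic cultures in which CD147 had been knocked out (CD147KO-Migs). The knockout therefore concerns the donor cells, and BSG, the gene for CD147, had 48157 reads with PBS and 34051, 37109 and 34021 with normo-Migs, hypo-Migs and CD147KO-Migs in the recipient cells. RNA was selected with poly-T beads, and whether the knockout was 1 clone is not given in the sources used here.

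Clustered histone genes are switched on mainly in S phase, when new DNA needs new nucleosomes. H2A, H2B, H3 and H4 form the core around which DNA is wound, and H1 binds the linker. Most of their mRNAs have no poly(A) tail: they end just after a stem-loop that is bound by SLBP, the stem-loop binding protein, and cut with the help of the U7 snRNP. Many of these genes also carry a poly(A) signal further downstream, and polyadenylated histone mRNA is known from differentiated and non-dividing cells. Poly-T beads select polyadenylated RNA, and how much tailless histone mRNA the cells held was not measured in these libraries.

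The stem-loops are shown because they mark the end of the tailless form, while the libraries were made from poly-T selected RNA. The consensus of the histone stem-loop was searched within 150 bases after the stop codon in GENCODE release 29 transcripts (GRCh38). It was found in 32 of the 36 members with an annotated sequence after the stop codon (88.9%), against 2 of 19049 other protein-coding genes (0.0105%). The stem-loop counted for HIST1H2BN lies just past the annotated end of HIST1H2AL, which the HIST1H2BN model overlaps. HIST1H2AL has no annotated sequence after its own stop codon, and which of the genes this stem-loop belongs to was not tested. There were 6 different 16-base forms, lying 22 to 67 bases after the stop codon. The capitals mark the 16-base stem-loop and the lower case its flanks. The commonest form, held by 17 members, is seen in HIST1H2AC, and a form held by 5 in HIST1H2BD. HIST1H2AG and HIST1H3E each had a form of their own, and the H4 genes shown have further forms with more G and C in the stem.
HIST1H2AC stem-loop, chr6:26124664-26124689, plus strand: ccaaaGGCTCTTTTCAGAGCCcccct
HIST1H2BD stem-loop, chr6:26158582-26158607, plus strand: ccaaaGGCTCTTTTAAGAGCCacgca
HIST1H2AG stem-loop, chr6:27133510-27133535, plus strand: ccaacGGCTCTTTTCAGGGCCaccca
HIST1H3E stem-loop, chr6:26225591-26225616, plus strand: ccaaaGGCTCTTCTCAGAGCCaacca
HIST1H4H stem-loop, chr6:26285126-26285151, minus strand: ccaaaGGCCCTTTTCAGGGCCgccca
HIST1H4I stem-loop, chr6:27139649-27139674, plus strand: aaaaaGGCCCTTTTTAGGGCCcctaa

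A poly(A) signal, AATAAA or ATTAAA, lay within 40 bases of an annotated transcript end in 22 of the 36 members (61.1%), against 82.7% of other genes. These sites are shown because poly-T beads select polyadenylated RNA. With PBS, the 22 members with such a signal had 5106 of the 10000 member reads. The 49 without one had 4894, and 35 members have no annotated sequence after the stop codon to search. Whether the reads depended on these sites was not tested. The signal counted for HIST1H4J lay directly before its stem-loop, so it does not mark an end further downstream. In HIST1H2AC the annotated end lay 1173 bases after the stop codon, counted along a spliced transcript and so further away on the genome. In HIST1H3E it lay 1908 bases after the stop codon. Both ends are far past the stem-loop. The capitals mark the signal.
HIST1H2AC poly(A) signal, chr6:26139076-26139102, plus strand: ctggcatgaggtAATAAAaggtaatgc
HIST1H2BD poly(A) signal, chr6:26171313-26171342, plus strand: aaagttataattAATAAAatctgcggagaa
HIST1H2BH poly(A) signal, chr6:26253677-26253706, plus strand: aaataattttttAATAAAaggtttttttaa
HIST1H3E poly(A) signal, chr6:26227440-26227469, plus strand: gttgagatgtaaAATAAAagattactgaac

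The library labelled PBS stood apart from the Mig libraries in ways that reach far beyond histone genes, and every comparison with PBS rests on it. Reads on genes numbered 33882496 to 40285223, and 251 genes had at most 3 reads with PBS and at least 100 in each Mig library. The hepatocyte genes ALB, AFP, APOB and TTR had 0 reads in all libraries, while the keratins KRT8 and KRT18 were abundant in all of them. HNF4A, also on the hepatocyte list, had 134, 146, 246 and 141 reads with PBS, normo-Migs, hypo-Migs and CD147KO-Migs. SERPINA1 had 25, 2, 9 and 10 in that order, and APOA1 and TF had at most 2 and 10 in a library. Markers of other cell types also differed between PBS and Migs. The summed FPKM of 4 fibroblast genes was 2.34 with PBS and 17.8 to 18.9 with Migs, led by COL1A1 and PDGFRB. COL1A2 went the other way, with 2 reads with PBS and 0 with Migs. The 5 leukocyte genes summed to 0.221 FPKM with PBS and 1.20 to 1.99 with Migs, with CD3E at 0 in all libraries. The 3 endothelial genes summed to 0.479 FPKM with PBS and 0.586 to 0.757 with Migs, and they did not move together: PECAM1 had 16 reads with PBS and 118 to 146 with Migs, CDH5 84 with PBS and 30 to 72 with Migs, and VWF 7 with PBS and 0 to 2 with Migs. The part of these differences in the histone results was not tested, nor was whether the PBS library came from cells of the same line and state, as its labels say. FPKM are reads scaled by gene length and library size.

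Clustered histone genes gave fewer reads in each Mig library than in the PBS library. The 71 members had 10000 reads with PBS and 5417, 6612 and 6418 with normo-Migs, hypo-Migs and CD147KO-Migs. Per 1000000 reads after TMM scaling, a correction for the makeup of each library, these sums were 289.7, 159, 164.7 and 183.3. The log2 ratio to PBS was -0.87 with normo-Migs (95% counting interval -0.91 to -0.82), -0.81 with hypo-Migs (-0.86 to -0.77) and -0.66 with CD147KO-Migs (-0.71 to -0.62). The PBS library was the highest and the 3 Mig libraries lay close together. These intervals cover counting error only: with 1 library per condition, no difference could be compared with the spread between cultures. In such bulk poly-T selected RNA, fewer cells in S phase, less histone RNA per cell and a smaller polyadenylated share of it cannot be told apart.

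By histone type, the H2B genes, whose proteins pair with H2A in the nucleosome, had 144.7 reads per 1000000 with PBS and 65.4, 71.7 and 81.1 with normo-Migs, hypo-Migs and CD147KO-Migs. Their log2 ratios to PBS were -1.14 (-1.22 to -1.07), -1.01 (-1.08 to -0.95) and -0.84 (-0.90 to -0.77). H4 genes had log2 ratios of -0.91, -0.87 and -0.82, H2A genes of -0.63, -0.68 and -0.54, H3 genes of -0.46, -0.72 and -0.47, and H1 genes of -0.53, -0.42 and -0.29, in the same order of libraries. H2B genes took 49.9% of member reads with PBS (95% Wilson interval 49.0 to 50.9) and 41.2% to 44.2% with Migs. Each type was highest with PBS. The ratios of the H2B genes had intervals that overlapped those of the H4 genes with hypo-Migs (-1.02 to -0.72) and with CD147KO-Migs (-0.97 to -0.66). HIST1H2BK gave 2296 of the 4993 H2B reads with PBS, and the H2B ratios without it, a choice made after seeing the data, were -1.07 (-1.17 to -0.97), -0.87 (-0.96 to -0.78) and -0.78 (-0.87 to -0.69), beside -0.91, -0.87 and -0.82 for H4.

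**Figure D1:**
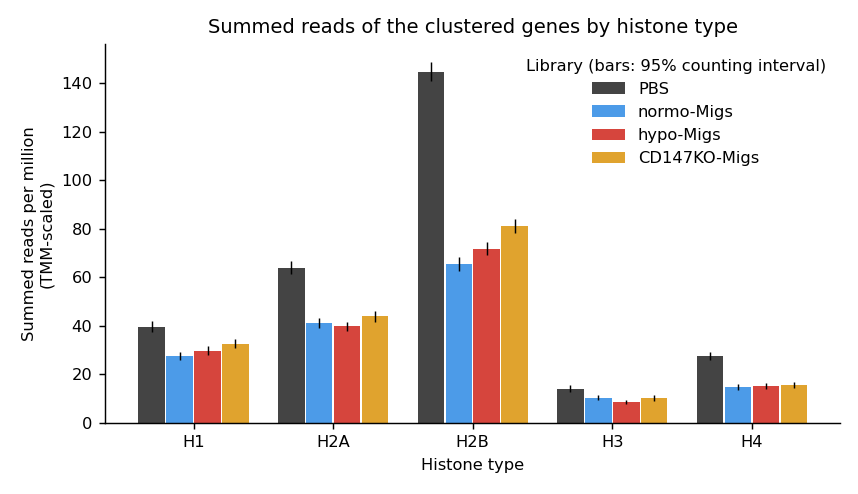
Summed TMM-scaled reads per 1000000 (y axis, starting at 0) of the clustered histone genes of each type (x axis) in the 4 libraries, with 95% counting intervals as error bars. The PBS bar is the highest for every type, and the gap is widest for H2B, at 144.7 against 65.4 to 81.1.

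The reads were concentrated in few genes, and HIST1H2BK, HIST1H1C and HIST1H2AC held 48.7% of member reads with PBS and 50.4% to 52.5% with Migs. Per length, HIST1H2BK had the highest level, at 174.3 FPKM with PBS and 73.5 to 92.3 FPKM with Migs. HIST1H1C, a linker histone, followed with 60.6 FPKM with PBS and 41.6 to 49.7 with Migs. HIST1H2AC had 21.2 FPKM with PBS and 14.7 to 16.9 with Migs. These levels rest on the length given to each gene. HIST1H2BK, on chromosome 6 from 27146418 to 27146798 on the minus strand, is a single coding exon of 381 bases in the annotation used. Its RefSeq gene spans 8566 bases of the genome, which is not a transcript length and gives no other FPKM. Of all members, 42 had at least 10 reads in some library, 19 had 1 to 9 reads at most and 10 had 0 in every library. The annotated models of HIST1H2BK and HIST1H1C hold no sequence after the stop codon, so neither stem-loop nor poly(A) signal could be searched in them.

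**Figure D2:**
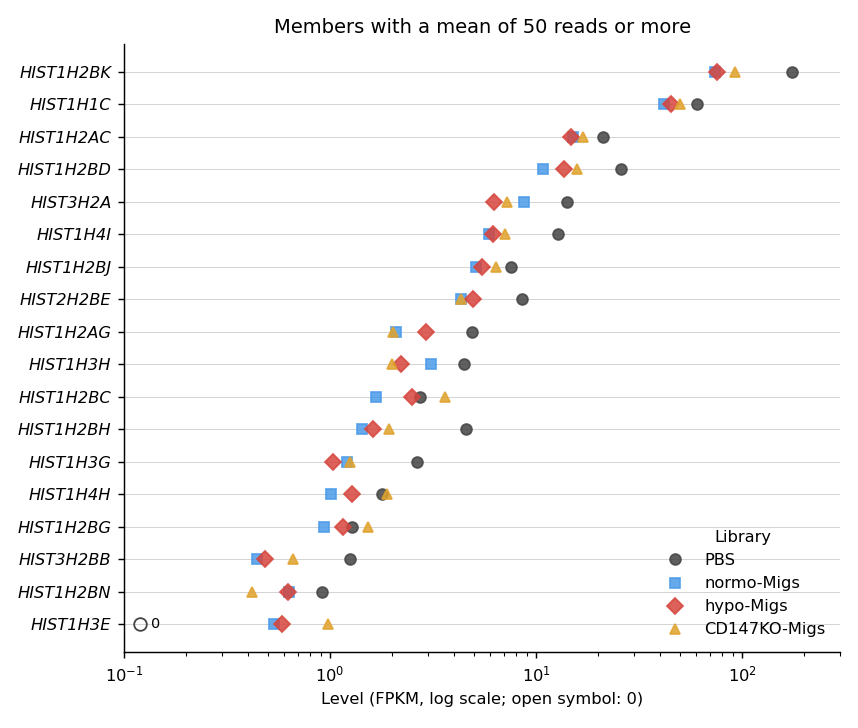
FPKM (x axis, log scale) of the 18 members with a mean of at least 50 reads, 1 symbol per library, ordered by mean level. The PBS symbol lies to the right for HIST1H2BK, HIST1H2BD and HIST1H4I, and at 0, drawn as an open circle, for HIST1H3E.

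Several members were near-identical, so reads could have been split or lost between copies. Of the 15 H4 genes, 14 encode 1 protein, and 10 H3 genes share another. A total of 8 members shared their whole coding sequence with another, and in summed form HIST2H2AA3 and HIST2H2AA4 had 29, 31, 23 and 22 reads in the order PBS, normo-Migs, hypo-Migs and CD147KO-Migs. HIST1H4J and HIST1H4K together had 75, 32, 43 and 16 reads. Without the 8 genes of shared coding sequence, the log2 ratios of the sums to PBS were -0.87, -0.81 and -0.65. Of the members, 16 overlap another gene, and the sources used here do not state how strands were handled in counting.

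For each pair of libraries, genes were called when the adjusted p of edgeR's exact binomial test on the reads was 0.05 or less and the absolute log2 fold change at least 1, the thresholds stated by the study. The 3 comparisons with PBS share that library. Of the 42 tested members, 2 passed as higher and 15 as lower with normo-Migs, where 16.5% of all 19895 genes tested passed as higher and 10.7% as lower. With hypo-Migs 2 were higher and 15 lower, beside 17.5% and 10.9% of all genes. With CD147KO-Migs 1 was higher and 14 lower, beside 16.6% and 10.9% of all genes. The median log2 fold change of the tested members was -0.68, -0.69 and -0.85, and that of all tested genes 0.03, 0.04 and 0.03. A member could be tested because of 1 library in which it was high, so these counts describe the tested members and not all 71. For 7 of them 1 library alone held 10 reads or more, and for 4 of these, HIST1H1E, HIST1H2AJ, HIST1H4D and HIST3H3, it was the PBS library. HIST1H1E, HIST1H4D and HIST3H3 were among the members that passed as lower in some of the comparisons, so those counts include members tested only because of PBS. In the 29 members with at least 10 reads in every library, the median log2 fold changes against PBS were -0.80, -0.91 and -0.89.

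HIST1H2BK, the member with most reads, and 4 other members of high reads passed as lower than with PBS in some of the comparisons. HIST1H2BK had 2296 reads with PBS and 962, 1164 and 1243 with normo-Migs, hypo-Migs and CD147KO-Migs. PBS was the highest of these and normo-Migs the lowest. Its log2 fold change was -1.23 with normo-Migs (adjusted p = 2.22e-119) and -1.20 with hypo-Migs (adjusted p = 2.84e-124, edgeR's exact binomial test), which passed, and -0.91 with CD147KO-Migs, which did not reach the fold criterion. HIST1H2BD, another H2B gene, had 781, 322, 482 and 488 reads in the same order and passed with normo-Migs (log2 fold change -1.25) but not with the other Migs (-0.91 and -0.70). HIST1H4I, which had the most reads of the H4 genes, had 571, 262, 323 and 322 reads and passed with normo-Migs (-1.10) and hypo-Migs (-1.03). HIST1H2AG had 382, 162, 265 and 161 reads and passed with normo-Migs (-1.21) and CD147KO-Migs (-1.26) while hypo-Migs lay between these and PBS (-0.74). HIST3H2A, an H2A gene of the third cluster, had 437, 269, 226 and 229 reads and passed with hypo-Migs (-1.16) but not with normo-Migs (-0.68) or CD147KO-Migs (-0.95).

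Other members of high reads missed the fold criterion. HIST1H1C had 1345, 918, 1179 and 1129 reads, with log2 fold changes of -0.53, -0.41 and -0.27 in the order normo-Migs, hypo-Migs and CD147KO-Migs. HIST1H2AC had 1224, 866, 992 and 998 reads, with -0.48, -0.52 and -0.32. HIST2H2BE had 651, 325, 437 and 335 reads, with -0.98, -0.79 and -0.98. HIST1H2BJ had 249, 166, 211 and 214 reads, with -0.56, -0.45 and -0.24. For all 4 genes the PBS library held the most reads.

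Some members with fewer reads had larger differences. HIST1H2BH, on chromosome 6 from 26251651 to 26253710, had 324 reads with PBS and 101, 134 and 140 with normo-Migs, hypo-Migs and CD147KO-Migs, and it passed in each (-1.64, -1.48 and -1.22). HIST1H3G, an H3 gene, had 221 reads with PBS and 100, 101 and 107 with Migs, and it passed in each (-1.11, -1.33 and -1.05). HIST2H2BF, an H2B gene of the HIST2 cluster, had 94 reads with PBS and 36, 29 and 32 with Migs, and it passed in each (-1.32, -1.84 and -1.52). All these values had PBS as the highest library. HIST1H2BE had 94 reads with PBS and 19, 20 and 10 with Migs, with log2 fold changes of -2.18, -2.33 and -3.02. HIST1H4K had 69 reads with PBS and 24, 32 and 12 with Migs, with -1.43, -1.27 and -2.36. The ranges of the Mig libraries did not reach the PBS value in any of these 5. HIST2H2BF and HIST1H2BE overlap other genes, and whether reads were shared with those was not tested.

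**Figure D3:**
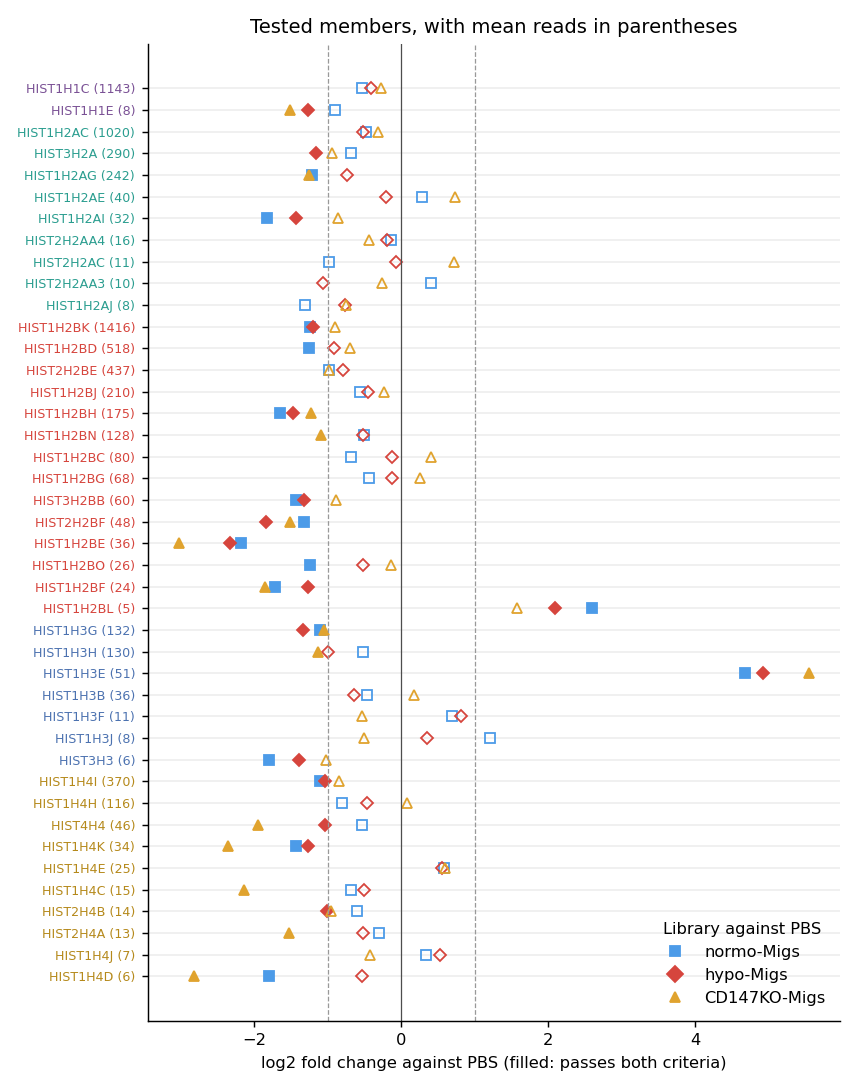
Log2 fold change against PBS (x axis) of each tested member, grouped and coloured by type and ordered by mean reads in parentheses; filled symbols passed both criteria and dashed lines mark a log2 of -1 and 1. Most symbols lie left of 0, and HIST1H3E stands alone near 5.

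Further members passed in some of the comparisons with PBS. HIST3H2BB, beside HIST3H2A on chromosome 1, had 102, 36, 46 and 55 reads in the order PBS, normo-Migs, hypo-Migs and CD147KO-Migs, and passed with normo-Migs (-1.43) and hypo-Migs (-1.33). HIST1H2AI, an H2A gene, had 59, 15, 24 and 32 reads and passed in the same pairs (-1.83 and -1.44). HIST1H2BF had 48, 13, 22 and 12 reads and passed in each (-1.72, -1.26 and -1.86). In all 3 genes the PBS library was the highest. HIST1H3H, with 191, 131, 110 and 87 reads, and HIST1H2BN, with 172, 119, 139 and 81, passed with CD147KO-Migs (-1.14 and -1.09). HIST1H2BN overlaps other genes, among them the members HIST1H2AK and HIST1H2AL, and whether reads were shared with those was not tested. The linker histone gene HIST1H1E had 15, 7, 6 and 4 reads, so it was tested only because of the PBS library.

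Other tested members overlapped the PBS value. HIST1H4H had 134 reads with PBS and 75, 112 and 144 with Migs, in the same order of Migs. HIST1H2BC had 79 and then 48, 84 and 107. HIST1H2BG had 68 and then 49, 72 and 83. For these genes the CD147KO-Migs library lay above PBS and the normo-Migs library below it. HIST1H3B had 40 and then 28, 29 and 46 reads, and HIST1H3F had 8 and then 14, 18 and 5.

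Of the members not tested, the 19 with 1 to 9 reads at most included HIST1H1B, HIST1H1D, HIST1H2AH and HIST1H2BI, each with at most 8 reads in a library, and HIST1H1T, a testis linker histone, with at most 1. The 10 with 0 reads were HIST1H2AA, HIST1H2AD, HIST1H2AK, HIST1H2AM, HIST1H2BA, HIST1H3D, HIST1H4A, HIST1H4F, HIST2H3A and HIST2H3PS2. Of these, 6 overlap another gene in the annotation. A count of 0 allows up to 3 reads in a library, or 0.0745 to 0.0885 per 1000000 reads on genes.

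HIST1H3E, an H3 gene that encodes the protein shared by 10 members, went the other way. It had 0 reads with PBS and 49, 63 and 92 with normo-Migs, hypo-Migs and CD147KO-Migs, or 0, 0.532, 0.581 and 0.971 FPKM. Taking the Mig counts as exact and 0 as a floor of 3 reads with PBS, these were at least 16.55-fold, 18.06-fold and 30.22-fold higher. HIST1H3E passed in each comparison (adjusted p = 4.4e-15, 4.35e-17 and 2.34e-27, edgeR's exact binomial test). With counting error in both libraries, the lower ends of the exact 95% counting intervals of the log2 ratio were 3.70, 3.83 and 4.59, which are smaller folds. The fitted log2 fold changes of 4.68, 4.92 and 5.54 depend on the prior count of 2 and are no bounds. The gene lies on chromosome 6 from 26224199 to 26227473 on the plus strand and has a transcript of 2 exons. HIST1H2BL, an H2B gene, also had 0 reads with PBS, and 10, 7 and 4 with Migs, so it was tested only because of the normo-Migs library.

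Members near HIST1H3E in the HIST1 cluster varied in the PBS library. HIST1H2AE, 490.8 kb from the cluster's first member, had 32 reads with PBS and 39, 32 and 55 with normo-Migs, hypo-Migs and CD147KO-Migs. HIST1H3E, at 498.1 kb, had 0 and then 49 to 92. The next member, the linker histone gene HIST1H1D at 508.1 kb, also had 0 reads with PBS, and 8, 0 and 2 with Migs. HIST1H4F, at 514.3 kb, and HIST1H3D and HIST1H2AD, at 470.7 and 472.7 kb, had 0 in every library. HIST1H2BH, at 525.5 kb, had 324 and then 101 to 140. HIST1H4E, at 478.4 kb, had 17 reads with PBS and 26, 30 and 27 with Migs, which did not pass. HIST1H2BE, at 445.9 kb, had 94 and then 10 to 20, so members with opposite differences stood close together.

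**Figure D4:**
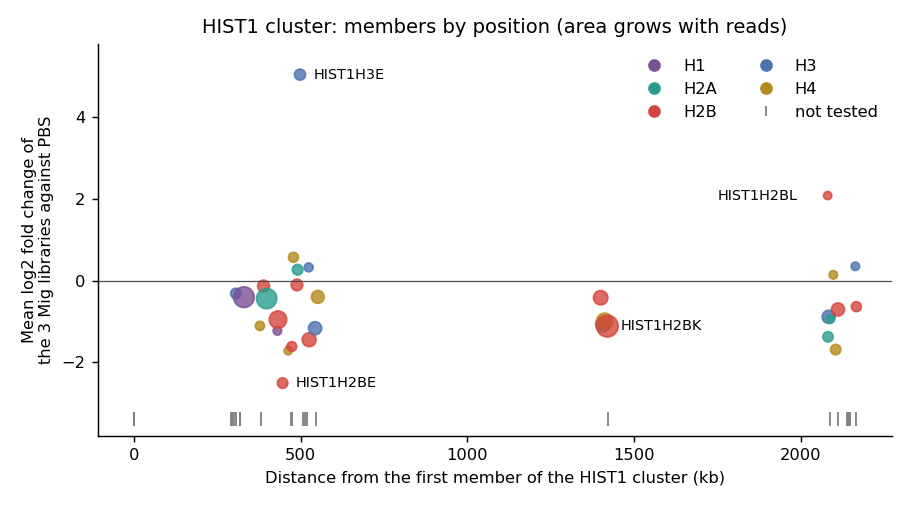
Mean log2 fold change of the 3 Mig libraries against PBS (y axis) of the HIST1 members by their distance in kb from the cluster's first member (x axis); area grows with reads, colour gives the type and ticks mark members not tested. HIST1H3E stands at 5.05 near members with values from -2.51 to 0.57.

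The start regions of HIST1H3E and of HIST1H2BH are shown because the 2 genes lie near each other and differed in opposite directions. They are the RefSeq windows from 250 bases before to 50 bases after each annotated start (GRCh38.p14). The capitals mark CCAAT and TATAAA on either strand. CCAAT was in 84.6% of the 65 windows of 61 matched members and in 34.5% of 35051 other windows, and TATAAA in 67.7% and 11.4%. HIST1H3E has 2 such windows. The second, nearest its coding sequence, holds 4 matches to CCAAT and none to TATAAA, and HIST1H2BH 3 and none.
HIST1H3E start window 1, chr6:26223928-26224227, plus strand: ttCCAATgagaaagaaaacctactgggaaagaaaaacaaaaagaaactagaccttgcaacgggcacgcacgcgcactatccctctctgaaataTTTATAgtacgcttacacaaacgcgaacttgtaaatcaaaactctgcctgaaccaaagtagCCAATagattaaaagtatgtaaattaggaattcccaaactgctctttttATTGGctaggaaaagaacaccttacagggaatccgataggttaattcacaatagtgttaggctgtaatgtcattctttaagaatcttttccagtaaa
HIST1H3E start window 2, chr6:26224885-26225184, plus strand: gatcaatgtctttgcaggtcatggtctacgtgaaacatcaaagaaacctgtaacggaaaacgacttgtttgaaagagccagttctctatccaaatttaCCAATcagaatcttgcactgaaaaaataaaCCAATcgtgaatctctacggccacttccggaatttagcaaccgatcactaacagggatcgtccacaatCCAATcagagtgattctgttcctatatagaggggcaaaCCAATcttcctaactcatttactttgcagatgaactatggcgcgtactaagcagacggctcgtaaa
HIST1H2BH start window, chr6:26251364-26251663, plus strand: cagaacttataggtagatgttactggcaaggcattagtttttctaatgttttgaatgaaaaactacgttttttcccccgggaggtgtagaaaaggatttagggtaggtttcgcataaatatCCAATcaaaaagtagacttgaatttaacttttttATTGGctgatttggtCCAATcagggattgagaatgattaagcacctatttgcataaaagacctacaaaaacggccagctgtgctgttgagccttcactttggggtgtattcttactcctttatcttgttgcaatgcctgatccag

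The comparisons among the Mig libraries do not involve the PBS library, and each of them shares a library with each of the others. The sums differed by a log2 ratio of 0.05 between hypo-Migs and normo-Migs (-0.0008 to 0.10), -0.15 between hypo-Migs and CD147KO-Migs (-0.20 to -0.10) and -0.20 between normo-Migs and CD147KO-Migs (-0.26 to -0.15). Of the 42 tested members, 1 passed between hypo-Migs and normo-Migs, where 4.91% of all genes passed in either direction. It was HIST2H2AA3 with 5 reads against 15, and its copy HIST2H2AA4 had 18 against 16. Between hypo-Migs and CD147KO-Migs 3 passed, beside 5.05% of all genes, and between normo-Migs and CD147KO-Migs 5 passed, beside 4.9%.

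The 3 that passed between hypo-Migs and CD147KO-Migs were H4 genes, all higher with hypo-Migs and all of low reads. HIST1H4K had 32 reads with hypo-Migs and 12 with CD147KO-Migs (log2 fold change 1.10, adjusted p = 0.0425 by edgeR's exact binomial test). HIST1H4C had 19 and 4 reads, and HIST1H4D had 9 and 0 reads. HIST1H4I, the H4 gene with most reads, had 323 and 322, and HIST1H4H had 112 and 144. The H4 genes as a whole had 604 and 548 reads, a log2 ratio of -0.06 (-0.23 to 0.11) after scaling. HIST4H4, the H4 gene on chromosome 12, had 41 reads with hypo-Migs, 18 with CD147KO-Migs and 50 with normo-Migs, and it passed between normo-Migs and CD147KO-Migs but in neither of the other Mig pairs (1.42, adjusted p = 0.00087, edgeR's exact binomial test).

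In that last pair, the others that passed were 2 H2B genes, 1 H2A and 1 H3 gene. HIST1H2BC had 48 reads with normo-Migs and 107 with CD147KO-Migs (-1.09). HIST1H2BO had 13 and 31 reads (-1.10). HIST2H2AC had 4 and 18 reads and HIST1H3J had 14 and 3. HIST1H2BK, by contrast with these, had 962 and 1243 reads, a log2 fold change of -0.33.

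**Figure D5:**
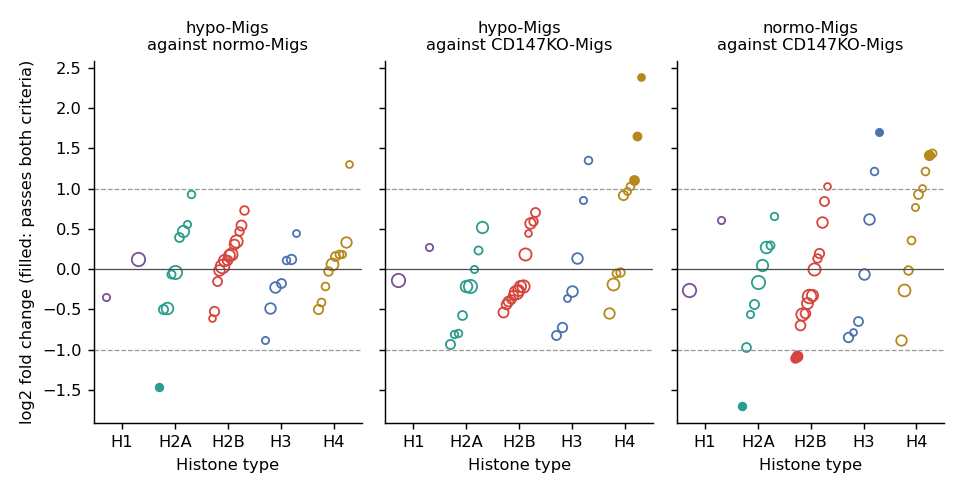
Log2 fold change (y axis) of each tested member between Mig libraries, by histone type (x axis); symbol size grows with reads and filled symbols passed both criteria. Most members lie between -1 and 1, and the 3 filled symbols for hypo-Migs against CD147KO-Migs are H4 genes with few reads.

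Genes that process histone mRNA were read beside the members. SLBP had 2554, 2771, 3185 and 2916 reads in the order PBS, normo-Migs, hypo-Migs and CD147KO-Migs, with log2 fold changes against PBS of 0.14, 0.10 and 0.17. NPAT, which switches on histone transcription, had 1606, 1129, 1431 and 1429 reads (-0.49, -0.38 and -0.19). CASP8AP2, found with NPAT at histone locus bodies, had 0.34, 0.29 and 0.28, in the order normo-Migs, hypo-Migs and CD147KO-Migs. In the same order, the U7 snRNP proteins LSM10 and LSM11 had 0.15, 0.09 and 0.04, and 0.33, 0.10 and 0.19. ZNF473, a U7-associated zinc finger protein, had -0.24, -0.09 and -0.25. Of 20 such genes tested, none passed with normo-Migs and 1 was lower with hypo-Migs and with CD147KO-Migs, where 10.7%, 10.9% and 10.9% of all genes tested passed as lower and 16.5%, 17.5% and 16.6% as higher. It was RNF40, a ubiquitin ligase for H2B, at 6473, 3251, 3340 and 3090 reads. Their median log2 fold changes were -0.14, -0.10 and -0.16.

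Histone genes outside the clusters mostly make polyadenylated mRNA through the cell cycle, and 12 of them were tested. H2AFZ, the H2A.Z variant, had 9572, 17192, 19701 and 16896 reads, with log2 fold changes of 0.86, 0.82 and 0.80. H2AFX, the damage-linked variant, had 0.56, 0.33 and 0.40. H3F3A and H3F3B, both H3.3 genes, had 0.05, 0.10 and 0.08, and 0.04, -0.04 and -0.03. The linker histones H1F0 (-0.39, -0.47 and -0.62) and H1FX (-0.54, -0.64 and -0.71) were below PBS, with the fold criterion not reached. Of these genes, 2 passed as higher with normo-Migs and with hypo-Migs and 1 with CD147KO-Migs, beside 16.5%, 17.5% and 16.6% of all genes, and none as lower, beside 10.7%, 10.9% and 10.9%. They were H2AFY2, with 4 reads with PBS and 55 to 76 with Migs, and H3F3C, with 6, 16, 19 and 6.

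Among histone chaperones, 1 of 16 tested passed against PBS, in 1 comparison, beside the same shares of all genes. It was ASF1A, higher with CD147KO-Migs (628 and 1296 reads, log2 fold change 1.02), beside 0.90 and 0.94 with normo-Migs and hypo-Migs. ASF1B had 0.29, 0.23 and 0.42, NASP -0.13, -0.17 and -0.24, and CHAF1B, a subunit of CAF-1, -0.69, -0.59 and -0.58. Among 26 S phase genes, 1 was higher and 1 lower in each comparison with PBS, where 16.5% to 17.5% of all genes were higher and 10.7% to 10.9% lower, and the medians were -0.13, -0.19 and -0.12. E2F1, an activator of S phase genes, had 1169, 3465, 3794 and 3749 reads, and RRM1, a ribonucleotide reductase subunit, 29030, 7462, 8574 and 7419. PCNA had -0.52, -0.48 and -0.39, MCM2 -0.90, -0.94 and -0.84, and CCNE2 -0.30, -0.16 and 0.01. Of the 26 genes, 20, 19 and 17 lay below 0 with normo-Migs, hypo-Migs and CD147KO-Migs, and 6, 7 and 9 above. Among those above 0 were MCM6 at 0.29, 0.30 and 0.39, MCM3 at 0.11, 0.15 and 0.18, and CCNE1 at 0.21, 0.25 and 0.47. Their part in the histone differences was not tested.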

How the data were processed

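RNA-seq of 4 libraries, 1 per condition, was analysed. Per the labels, libraries were made with a SMARTer mRNA kit. The submitters' processing notes name CASAVA 1.8, fastp, HISAT2 2.0.5 and featureCounts 1.5.0-p3 on hg38; strand handling is not given in the sources used here. The authors deposited raw counts of reads per gene, without normalization, and FPKM, which they scaled by gene length and library size. Reads on genes numbered 33882496 to 40285223, and a count of 0 allows 3 reads, or 0.0745 to 0.0885 per 1000000.

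The 19895 genes that reached 10 reads in some library were compared with R 4.3.3 and edgeR 4.0.16, using TMM scaling, a prior count of 2 and the two-sided exact binomial test with Benjamini-Hochberg adjustment over all genes tested. This test compares libraries and not conditions, since quasi-likelihood tests need replicates. Intervals of ratios are exact (Clopper-Pearson), those of shares Wilson, at 95%. DESeq2 1.42.0 served as an alternative. Transcripts were from GENCODE release 29, start windows from RefSeq, matched by symbol. The script was tested on simulated data.

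Members and lists were chosen with earlier results of these data known. Named were the 10 members of highest mean FPKM, members averaging 50 reads or more and passing one way in all 3 comparisons with PBS, members averaging 20 reads or more and passing between Mig libraries, and those at 0 in 1 library and at least 50 in another. Other members were named after their values were seen. Blots and animal data were not analysed here.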

Additional observations from a re-analysis of the deposited data

How the results depend on the processing

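With 1 library per condition no difference has a replicate check, low-read members rest on a few reads, and depth limits what can be seen in the 29 members not tested. No paired analysis was possible because each condition has 1 library, and none could be left out of a group. Of 27 calls on named members, 27 held under scaling by total reads, DESeq2 size factors and a prior count of 0.25, and 26 on log2(FPKM + 0.1), where HIST4H4 with hypo-Migs against PBS was -0.92. The counts of members that passed, in the order normo-Migs, hypo-Migs and CD147KO-Migs against PBS, were 17, 17 and 15. They became 1, 1 and 2 with an assumed coefficient of variation of 0.4, 0 in each with DESeq2 over the 4 libraries as if replicates (1 in each at an unadjusted p under 0.05), and 5, 5 and 3 on log2(FPKM + 1). In the order hypo-Migs against normo-Migs, hypo-Migs against CD147KO-Migs and normo-Migs against CD147KO-Migs, the counts of 1, 3 and 5 became 0, 1 and 3 with 10 reads required in every library, 0, 0 and 2 with a coefficient of variation of 0.1, and 0 in each with 0.4, with DESeq2 (0 in each also unadjusted) and on log2(FPKM + 1). They became 2, 5 and 9 on log2(FPKM + 0.1) and 2, 5 and 10 by fold alone. The log2 ratios of summed reads to PBS were -0.94 with normo-Migs and -0.89 with hypo-Migs as sums of FPKM, and -0.77, -0.72 and -0.60 without HIST1H2BK, the member with most reads. Fewer genes tested or a wider assumed spread is part of the construction of these alternatives; otherwise the cause was not tested.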

Other observations

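The tables also hold 19 genes with symbols of the same form that are not annotated as protein-coding, 2 of them on chromosome 13. Their summed reads were 627 with PBS and 397, 408 and 493 with normo-Migs, hypo-Migs and CD147KO-Migs, and 9 had 0 reads in every library. HIST2H2BC, an H2B-like gene, had 447, 282, 279 and 333 reads in this order of libraries, and HIST2H2BD had 145, 104, 112 and 148. Some genes that overlap members could share reads with them. AL031777.3, a protein-coding gene that covers HIST1H3D and HIST1H2AD, both at 0 reads in every library, had 44, 14, 18 and 18 reads. AL353759.1, which overlaps HIST1H2BE and HIST1H2BD, had 30, 4, 17 and 9. FCGR1A and AC243772.2 overlap HIST2H2BF, and they had 12, 2, 4 and 0, and 21, 4, 3 and 1. Whether members shared reads with these genes was not tested.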
